A study of Homo sapiens with 18 samples.

Results

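The 10 genes described here encode parts of the smooth muscle type of contractile apparatus: the actins ACTA2 and ACTG2, the actin-binding proteins TAGLN and CNN1, the myosin light chain MYL9, the tropomyosins TPM1 and TPM2, the caldesmon CALD1, and the actin-associated proteins SYNPO and SYNPO2. The genes were chosen by symbol from the probe annotation of a human whole-transcript array, with the probe of highest mean over all arrays for each, and the list was selected on earlier results of these arrays, among them the falls of ACTA2, SYNPO and SYNPO2 against shNSC. Each had 1 probe, so that mean chose nothing between probes, and the 10 stand among 17687 genes with a single symbol. The values are log2 signals on 18 arrays, 3 biological replicates in each of 6 groups. The neuroblastoma lines SK-N-BE(2), in which MYCN is amplified, and CHLA-90, without that amplification, were given pLKO lentivirus made in HEK-293T cells. The virus carried the control hairpin shNSC or a short hairpin RNA against ERK5, shERK5-4 or shERK5-5, and RNA was taken 72 hours later. Every group, the controls included, was therefore exposed to virus, and each hairpin is a single sequence. The comparison with shNSC asks how silencing of ERK5, a kinase whose gene is MAPK7, changes gene expression in these cells.

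Smooth muscle cells shorten when myosin pulls on actin filaments, and the non-muscle cells that express the same genes use them for stress fibres, adhesion and movement. Tropomyosin lies along the filament, caldesmon and calponin (CNN1) bind it and restrain myosin, and the myosin regulatory light chain (MYL9) switches the motor on when it is phosphorylated. Many of these genes are classical targets of serum response factor (SRF), which binds the CArG box of their promoters together with myocardin-family cofactors. In neuroblastoma, contractile genes are best known from cells in a mesenchymal or substrate-adherent state.

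MAPK7 fell with each hairpin in each line. It stood in SK-N-BE(2) at 61.8% (shERK5-4) and 64.3% (shERK5-5) of its shNSC level, and in CHLA-90 at 47.7% and 50.5% of it (limma adjusted p = 0.0103, 0.0319, 0.000329 and 0.00139). Array medians ranged from 5.63 to 5.69 in SK-N-BE(2) and from 6.35 to 6.43 in CHLA-90, a step between the lines that bears on every level compared across them. Of the adrenergic neuroblastoma markers, which define the sympathetic cell type of the labels, 10 were measured, with mean signals per array of 9.73 to 11.18 in SK-N-BE(2) and 11 to 13.24 in CHLA-90. Of 8 markers of mature smooth muscle, 6 passed the threshold in none of the 4 comparisons with shNSC, MYH11, DES, LMOD1 and MYOCD among them. The exceptions were SYNM, which fell with shERK5-4 in both lines (-1.43 ± 0.17 and -1.16 ± 0.17) and rose with shERK5-5 in SK-N-BE(2) (0.58 ± 0.17), and ITGA8, which fell with shERK5-4 in CHLA-90 (-2.77 ± 0.20). None of 6 endothelial markers passed. Among all probes, the share called in either direction under shERK5-4 was 23.9% (SK-N-BE(2)) and 18.3% (CHLA-90). Under shERK5-5 it was 12.8% and 12.7%. Most probes were thus not called, so the counts of these 2 short lists do not decide the cell type. Array signals have no read depth, so the number of arrays limits the precision, and fewer cells that express a gene cannot be told apart from less of its RNA per cell.

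**Figure D1:**
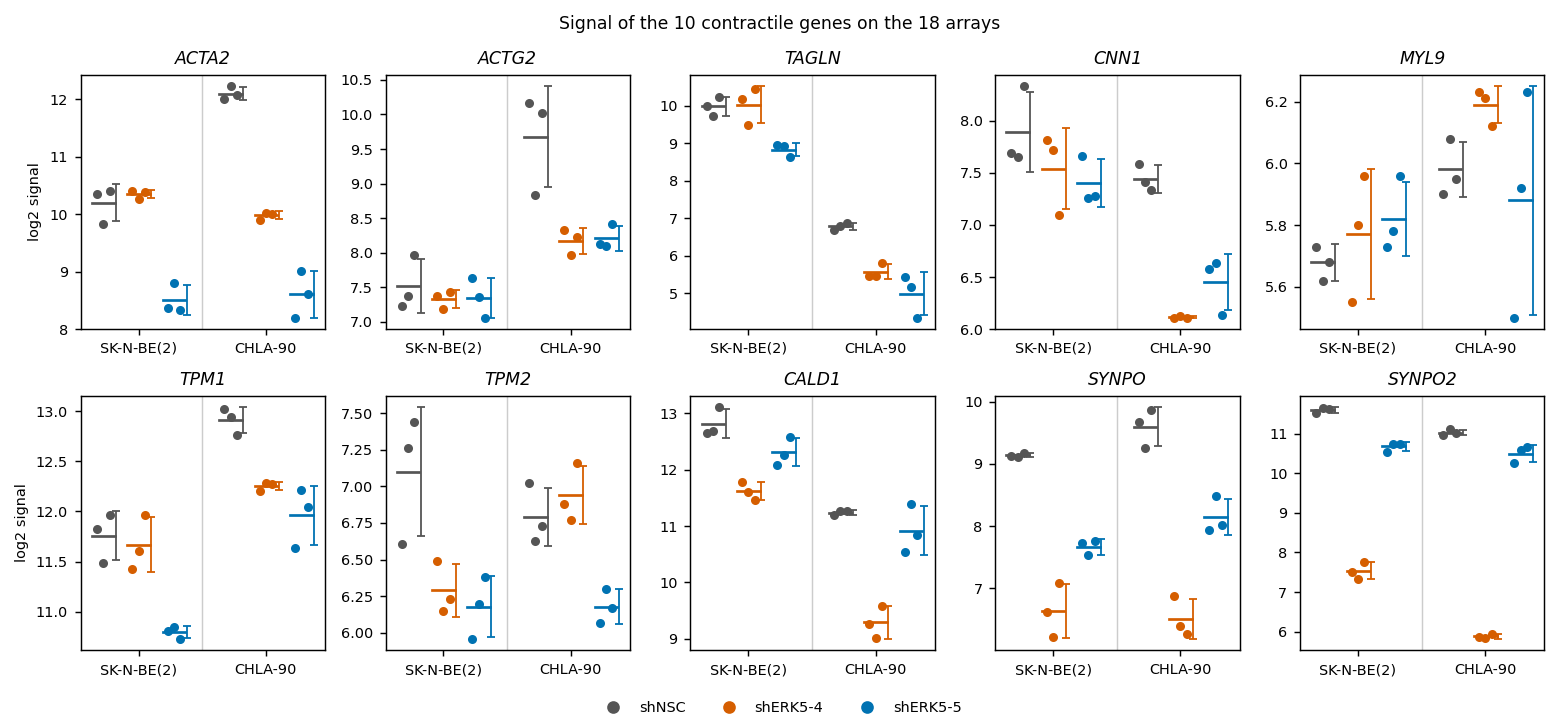
Log2 signal of each of the 10 genes (vertical axis) on all 18 arrays, by line and hairpin; points are arrays, horizontal lines group means and bars the SD of 3 arrays. SYNPO2 lies between 5.83 and 5.94 in CHLA-90 with shERK5-4 and between 10.98 and 11.11 with shNSC, while MYL9 stays between 5.5 and 6.23 on all arrays.

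Under the control hairpin shNSC the lines differed in 6 of the 10 genes, a share like that of all probes. TAGLN, or transgelin, an actin-crosslinking protein of stress fibres, had signals of 10, 9.73 and 10.22 on the SK-N-BE(2) shNSC arrays and of 6.68, 6.79 and 6.87 on those of CHLA-90, a log2 difference of -3.20 ± 0.25 (SE, as for all differences below). CALD1 was also lower in CHLA-90, by a log2 difference of -1.58 ± 0.21, and SYNPO2 by -0.56 ± 0.16. The smooth muscle actins were the other way round: ACTA2 was higher in CHLA-90 by 1.91 ± 0.20, ACTG2 by 2.15 ± 0.26 and TPM1 by 1.15 ± 0.18. Thus 6 of the 10 genes passed the threshold (adjusted p from 2.15e-10 to 0.0038 by limma), where 60% of all probes did. These 6 kept their direction and their call when each array was centred on its median or all arrays were quantile normalized, with TPM1 at 0.43 (adjusted p = 0.0485) after centring. The other 4 genes depended on the scaling. CNN1 was at -0.45 as deposited (adjusted p = 0.0709) and -1.17 after centring (adjusted p = 6.7e-05), and TPM2 at -0.31 and -1.03. MYL9 turned from 0.30 to -0.42 and SYNPO from 0.47 to -0.25. Over all probes the median difference between the lines was 0.453 as deposited and -0.265 after centring.

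ACTA2 encodes smooth muscle alpha-actin, the actin by which myofibroblasts and vascular muscle are recognised. In SK-N-BE(2) its signals were 10.36, 9.83 and 10.40 with shNSC, 10.40, 10.27 and 10.38 with shERK5-4, and 8.37, 8.81 and 8.34 with shERK5-5. The shERK5-4 arrays overlapped the controls there, and the shERK5-5 arrays lay below all of them. In CHLA-90 they were 12, 12.23 and 12.08 with shNSC, 9.90, 10.03 and 10.01 with shERK5-4, and 8.20, 9.01 and 8.62 with shERK5-5, 3 ranges that did not overlap. ACTA2 was thus at 111% and 31.0% of its control level in SK-N-BE(2), and at 23.0% and 8.88% in CHLA-90. The log2 changes were 0.15 ± 0.20 and -1.69 ± 0.20 in the first line and -2.12 ± 0.20 and -3.49 ± 0.20 in the second. ACTA2, SYNPO and SYNPO2 had been singled out for their falls in earlier results on these arrays, so their changes against shNSC are given as a description, without a p-value.

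ACTG2 encodes the gamma-actin of visceral smooth muscle, a close relative of ACTA2. Its CHLA-90 signals were 10.17, 8.84 and 10.02 with shNSC, 8.33, 7.96 and 8.23 with shERK5-4, and 8.12, 8.10 and 8.42 with shERK5-5. Every hairpin array lay below every control array, although the second control stood well below the other controls. The log2 changes were -1.50 ± 0.26 and -1.46 ± 0.26 (limma adjusted p = 0.000228 and 0.000616), so ACTG2 fell to 35.3% and 36.3% of its control level. In SK-N-BE(2) the 9 arrays ran from 7.06 to 7.97 and the groups overlapped, with changes of -0.19 ± 0.26 and -0.17 ± 0.26 (adjusted p = 0.694 and 0.800). Actin genes share most of their coding sequence, and whether these probes also bind the RNA of other actins is not known here. The skeletal and cardiac actins ACTA1 and ACTC1 and the cytoplasmic actins ACTB and ACTG1 passed the threshold in none of the 4 comparisons with shNSC, and their log2 changes there lay between -0.40 and 0.40.

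The promoters of the 2 actins are shown because these genes are reference targets of SRF, whose own transcript moved with shERK5-5 (described further on). A link between SRF and the changes of these genes was not tested. The sequences, from RefSeq on GRCh38.p14, are the 150 bases before a start site, with matches to the CArG box in capitals, those with 1 inner C or G in place of A or T included.
ACTG2, chr2:73892858-73893007, plus strand: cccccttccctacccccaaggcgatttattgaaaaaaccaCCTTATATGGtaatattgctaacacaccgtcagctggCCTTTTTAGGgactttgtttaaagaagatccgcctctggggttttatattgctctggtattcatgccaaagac
ACTA2, chr10:88952774-88952923, minus strand: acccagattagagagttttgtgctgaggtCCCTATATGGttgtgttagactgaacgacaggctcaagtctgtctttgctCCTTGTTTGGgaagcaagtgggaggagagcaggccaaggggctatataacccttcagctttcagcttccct
The ACTG2 matches begin 110 and 73 bases before the start and follow the consensus in full. The ACTA2 matches begin 121 and 71 bases before it and each has 1 inner mismatch. Another ACTA2 window, at chr10:88991338-88991487 and not shown, held no match of either kind. A full CArG box was present in the 250 upstream bases of 1.16% of 35116 promoter windows, a match with at most 1 inner mismatch in 7.04%, and at least 2 such matches in 0.587%. Because the motif is its own reverse complement, both strands were covered. Of the 10 genes, 8 had 16 windows among these, and 1 window each of ACTG2, ACTA2, CALD1 and SYNPO2 held such a match. TAGLN and MYL9 had no window, so their promoters were not searched. The MCAT motif, searched as GGAATG or CATTCC, begins 183 bases before the ACTA2 start and occurs in 11.9% of all windows. It also occurred in a window of SYNPO2 and in windows of CALD1. These matches describe the letters and say nothing about binding in these cells.

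TAGLN followed ACTA2. Its SK-N-BE(2) signals were 10.18, 9.48 and 10.43 with shERK5-4, overlapping the controls, and 8.94, 8.93 and 8.62 with shERK5-5, below all of them. In CHLA-90 it was at 5.45, 5.47 and 5.82 with shERK5-4 and at 5.44, 5.17 and 4.35 with shERK5-5, each below every control array. TAGLN fell with shERK5-5 in both lines (log2 change -1.15 ± 0.25 in SK-N-BE(2), limma adjusted p = 0.00228, and -1.79 ± 0.25 in CHLA-90, adjusted p = 3.12e-05). With shERK5-4 it fell in CHLA-90 (-1.20 ± 0.25, adjusted p = 0.00116) and was at 0.05 ± 0.25 in SK-N-BE(2) (adjusted p = 0.938). CNN1, the calponin of differentiated smooth muscle, fell in CHLA-90 with both hairpins. Its signals there were 7.58, 7.41 and 7.33 with shNSC, 6.11, 6.13 and 6.11 with shERK5-4, and 6.58, 6.63 and 6.14 with shERK5-5. The controls lay above all 6 hairpin arrays, with log2 changes of -1.32 ± 0.21 (adjusted p = 7.3e-05) and -0.99 ± 0.21 (adjusted p = 0.00281). In SK-N-BE(2), where the CNN1 groups overlapped between 7.09 and 8.33, the changes were -0.35 ± 0.21 and -0.49 ± 0.21 (adjusted p = 0.278 and 0.156).

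MYL9 was the member with the narrowest range. Over 18 arrays its signal ran from 5.5 to 6.23, and the changes against shNSC lay between -0.09 ± 0.17 and 0.21 ± 0.17 (limma adjusted p from 0.492 to 0.794). Its CHLA-90 arrays with shERK5-4, at 6.23, 6.21 and 6.12, lay above the controls at 5.90, 6.08 and 5.95, and the other groups overlapped the controls of their line. The 95% intervals of those 4 changes span -0.45 to 0.57, so a change of a log2 unit in either direction lies outside them. The background of each probe is unknown, so a probe with a poor response would give the same values.

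The 2 tropomyosins moved differently. TPM1 is the widely expressed alpha-tropomyosin gene. In SK-N-BE(2) it was at 11.83, 11.49 and 11.96 with shNSC, 11.43, 11.61 and 11.96 with shERK5-4, and 10.81, 10.85 and 10.73 with shERK5-5. The shERK5-5 arrays stood apart below and the other groups overlapped. In CHLA-90 it was at 13.02, 12.94 and 12.76 with shNSC, 12.20, 12.28 and 12.27 with shERK5-4, and 11.64, 12.21 and 12.04 with shERK5-5. TPM1 fell with shERK5-5 by log2 changes of -0.96 ± 0.18 and -0.94 ± 0.18 in the 2 lines (limma adjusted p = 0.000596 and 0.001). With shERK5-4 it fell in CHLA-90 (-0.66 ± 0.18, adjusted p = 0.0119), a call lost without CHLA-90 shNSC replicate 1 (-0.60, adjusted p = 0.0553), and was at -0.09 ± 0.18 in SK-N-BE(2) (adjusted p = 0.794).

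TPM2, the beta-tropomyosin gene, had SK-N-BE(2) signals of 6.61, 7.26 and 7.44 with shNSC, 6.49, 6.15 and 6.23 with shERK5-4, and 5.96, 6.20 and 6.38 with shERK5-5. All 6 hairpin arrays lay below the controls, and TPM2 fell by -0.81 ± 0.20 and -0.92 ± 0.20 (limma adjusted p = 0.00363 and 0.00241). In CHLA-90 it was at 7.02, 6.63 and 6.73 with shNSC, 6.88, 6.77 and 7.16 with shERK5-4, and 6.07, 6.30 and 6.17 with shERK5-5. There shERK5-4 overlapped the controls (0.14 ± 0.20, adjusted p = 0.720). The fall with shERK5-5 (-0.61 ± 0.20, adjusted p = 0.0461) was near the threshold and was lost when any single one of the 6 CHLA-90 arrays compared was left out (adjusted p from 0.0564 to 0.186).

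CALD1 encodes caldesmon, which binds actin, tropomyosin and myosin. Its SK-N-BE(2) signals were 12.66, 12.69 and 13.11 with shNSC, 11.78, 11.60 and 11.47 with shERK5-4, and 12.08, 12.27 and 12.58 with shERK5-5. In CHLA-90 they were 11.19, 11.26 and 11.27, then 9.26, 9.01 and 9.59, then 10.54, 11.39 and 10.84 in the same order. The shERK5-4 arrays were the lowest of each line without overlap. CALD1 fell with shERK5-4 to 43.4% of control in SK-N-BE(2) and 25.8% in CHLA-90 (log2 changes -1.20 ± 0.21 and -1.95 ± 0.21, limma adjusted p = 0.000121 and 3.67e-07). With shERK5-5 the changes were -0.51 ± 0.21 and -0.32 ± 0.21 (adjusted p = 0.130 and 0.367). The SK-N-BE(2) arrays with shERK5-5 also lay below all controls, and that change gained a call with array weights (adjusted p = 0.044).

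Both synaptopodins were lower with both hairpins, and further down with shERK5-4. SYNPO, which binds actin and alpha-actinin in dendritic spines and kidney podocytes, had SK-N-BE(2) signals of 9.13, 9.11 and 9.17 with shNSC, 6.62, 6.22 and 7.08 with shERK5-4, and 7.73, 7.53 and 7.76 with shERK5-5. Its CHLA-90 signals were 9.68, 9.26 and 9.87, then 6.87, 6.39 and 6.26, then 7.94, 8.48 and 8.02. The 3 groups of a line did not overlap, in the order shNSC, shERK5-5, shERK5-4. Under shERK5-4 SYNPO was left at 17.7% (SK-N-BE(2)) and 11.7% (CHLA-90) of control, and under shERK5-5 at 36.3% and 36.4%. Its log2 changes with shERK5-5 were alike in the lines, at -1.46 ± 0.22 in each, with a difference between them of 0.01 (95% interval -0.63 to 0.65).

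SYNPO2, or myopodin, a muscle relative of SYNPO that links actin to the Z-disc and to adhesion sites, had the largest change of the 10 genes against shNSC. In SK-N-BE(2) it was at 11.52, 11.64 and 11.63 with shNSC, 7.51, 7.34 and 7.76 with shERK5-4, and 10.55, 10.73 and 10.75 with shERK5-5. In CHLA-90 it was at 10.98, 11.11 and 11.01, then 5.86, 5.83 and 5.94, then 10.26, 10.59 and 10.66. Again no groups of a line overlapped, and the order was that of SYNPO. SYNPO2 stood at 6.00% and 52.9% of control in SK-N-BE(2) and at 2.8% and 69.3% in CHLA-90 with shERK5-4 and shERK5-5. With shERK5-4 the log2 changes were -4.06 ± 0.16 and -5.16 ± 0.16. With shERK5-5 they were -0.92 ± 0.16 and -0.53 ± 0.16, and the CHLA-90 value was past the threshold with all arrays but not without any single CHLA-90 shNSC array (-0.56, -0.49 and -0.54) or without shERK5-5 replicate 1 (-0.41). The near relative SYNPO2L was at -0.40 ± 0.18 and 0.14 ± 0.18 with shERK5-4 in the 2 lines (limma adjusted p = 0.115 and 0.693).

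**Figure D2:**
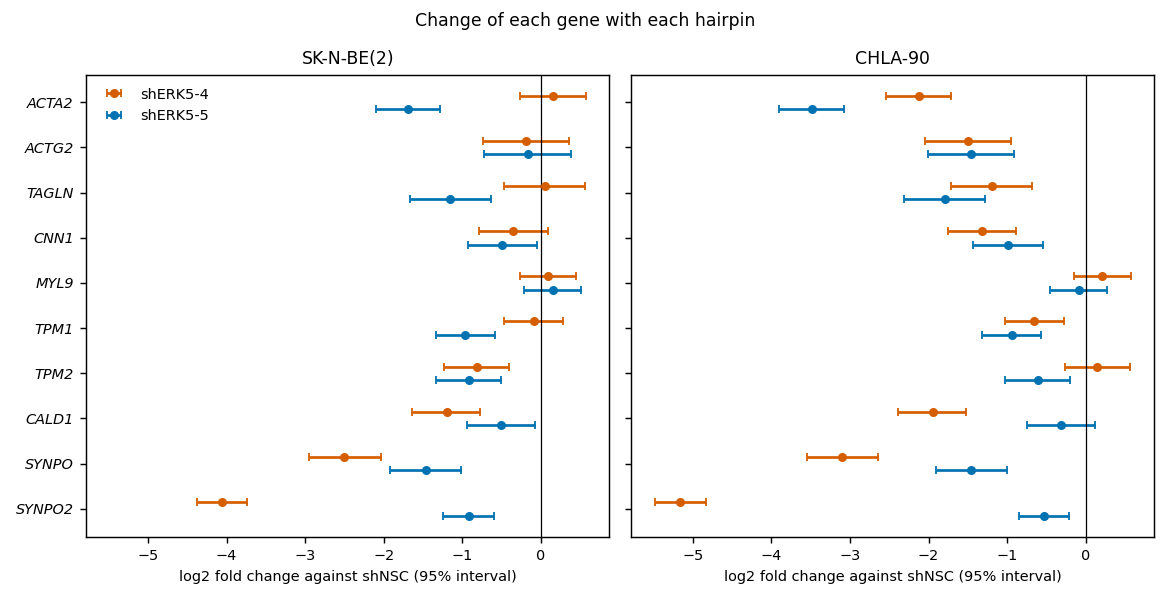
Log2 fold change against shNSC of each of the 10 genes (horizontal axis; points are model estimates over 3 arrays a group, bars 95% intervals) with shERK5-4 and shERK5-5 in each line. SYNPO2, SYNPO and CALD1 lie further left with shERK5-4, and ACTA2 and TAGLN further left with shERK5-5; no gene has an interval wholly above 0.

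Counted over the list, the genes past the threshold were all lower. With shERK5-4 in SK-N-BE(2) they were 4 of 10 (TPM2, CALD1, SYNPO and SYNPO2), where 11.7% of all probes were called lower and 23.9% called in either direction. With shERK5-5 they were 6 of 10 there (ACTA2, TAGLN, TPM1, TPM2, SYNPO and SYNPO2), against 6.07% lower and 12.8% in all. In CHLA-90, 8 of 10 were lower with shERK5-4, all but MYL9 and TPM2, against 8.25% lower and 18.3% in all. With shERK5-5, 8 of 10 were lower, all but MYL9 and CALD1, against 6.84% lower and 12.7% in all. Over the fits that left out a single array these counts were 4, 6, 7 to 8 and 6 to 8, in the same order. In the last, the TPM2 call was lost in 11 and the SYNPO2 call in 4 of 18 such fits. Without ACTA2, SYNPO and SYNPO2 the numbers were 2, 3, 5 and 5 of 7. The genes were listed with earlier results on these arrays known, so these counts are a description. The median log2 change of the 10 was -0.27, -0.92, -1.41 and -0.97 in these 4 comparisons, in the same order, while the median over all probes lay between -0.003 and 0.05. The comparisons of a line share their 3 control arrays.

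The hairpins differed from each other in a way that recurred in both lines. SYNPO2 was lower with shERK5-4 than with shERK5-5 by log2 differences of -3.14 ± 0.16 in SK-N-BE(2) and -4.63 ± 0.16 in CHLA-90, and SYNPO by -1.03 ± 0.22 and -1.64 ± 0.22. CALD1 was lower by -0.69 ± 0.21 and -1.64 ± 0.21 (limma adjusted p = 0.016 and 3.15e-06). The SK-N-BE(2) call for CALD1 was lost without shERK5-4 replicate 3 (adjusted p = 0.0626) or shERK5-5 replicate 3 (adjusted p = 0.1). ACTA2 went the opposite way, higher with shERK5-4 than with shERK5-5 by 1.84 ± 0.20 and 1.37 ± 0.20. The values of ACTA2, SYNPO and SYNPO2 use the arrays whose falls led to their choice and are again given without a p-value.

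TAGLN and TPM1 differed between the hairpins in SK-N-BE(2), by 1.20 ± 0.25 and 0.87 ± 0.18 (limma adjusted p = 0.000681 and 0.000685). In CHLA-90 they were at 0.59 ± 0.25 and 0.29 ± 0.18 (adjusted p = 0.0809 and 0.257); TAGLN passed there without CHLA-90 shERK5-5 replicate 1 (0.82, adjusted p = 0.0247) or SK-N-BE(2) shERK5-4 replicate 2 (adjusted p = 0.0482). TPM2 was higher with shERK5-4 in CHLA-90 (0.76 ± 0.20, adjusted p = 0.00653) and at 0.11 ± 0.20 in SK-N-BE(2) (adjusted p = 0.785). In all, 6 of the 10 genes differed between the hairpins in SK-N-BE(2) and 5 in CHLA-90, where 24.5% and 27.2% of all probes did. For ACTG2 the differences were -0.02 (95% interval -0.57 to 0.53) and -0.04 (-0.59 to 0.51), for CNN1 0.14 (-0.30 to 0.58) and -0.33 (-0.77 to 0.10), and for MYL9 -0.05 (-0.41 to 0.31) and 0.30 (-0.06 to 0.66). MAPK7 itself differed between the hairpins by -0.06 (-0.46 to 0.35) and -0.08 (-0.48 to 0.32).

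**Figure D3:**
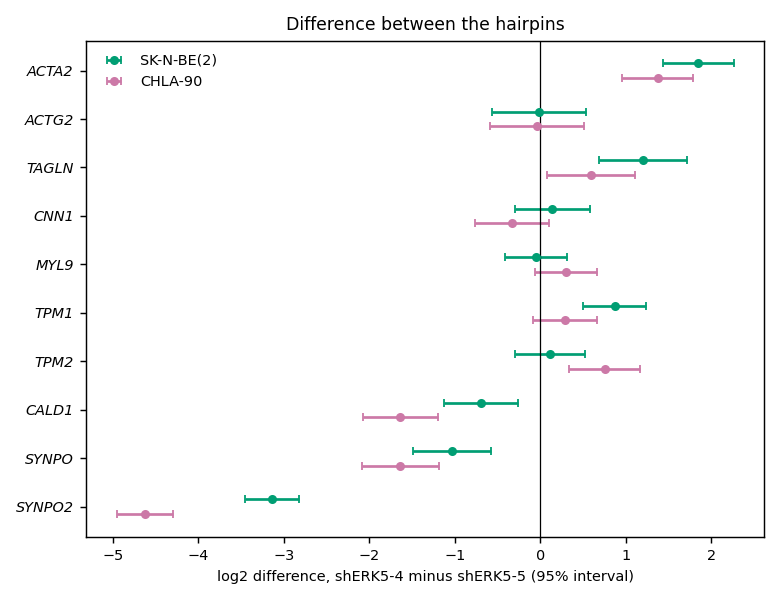
Log2 difference between shERK5-4 and shERK5-5 (horizontal axis; points are model estimates over 3 arrays a group, bars 95% intervals) for the 10 genes in each line. SYNPO2, SYNPO and CALD1 lie below 0 in both lines, reaching -4.63 for SYNPO2 in CHLA-90, and ACTA2 lies above 0 in both.

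The response to a hairpin also differed between the lines for some genes. As a description, since these differences are made of the falls that led to the choice of the genes, the change of ACTA2 in CHLA-90 less that in SK-N-BE(2) was -2.28 ± 0.28 with shERK5-4 and -1.80 ± 0.28 with shERK5-5. For SYNPO2 it was -1.10 ± 0.22 and 0.39 ± 0.22, and for SYNPO -0.60 (95% interval -1.24 to 0.04) with shERK5-4. With shERK5-4, ACTG2 (-1.31 ± 0.37, limma adjusted p = 0.0342), TAGLN (-1.25 ± 0.35, adjusted p = 0.0313) and TPM2 (0.96 ± 0.28, adjusted p = 0.0405) passed the threshold narrowly, as did ACTG2 with shERK5-5 (-1.29 ± 0.37, adjusted p = 0.0466). Each of these 4 calls was lost in 8 to 13 of the 18 fits that left out a single array. Of 8 other settings, the TPM2 call was lost in 5 (adjusted p up to 0.0827). The ACTG2 call was lost in 1 with shERK5-4 and in 2 with shERK5-5, and the TAGLN call in 0. CNN1 was just short of it with shERK5-4 (-0.97 ± 0.30, adjusted p = 0.0503) and passed with median centring (adjusted p = 0.0432), quantile normalization (0.0488), dim probes left out (0.0419) or array weights (0.0339), and in 4 of the 18 fits without an array. With ACTA2 and SYNPO2 counted, 5 of 10 genes were past the threshold with shERK5-4 and 2 of 10 with shERK5-5, where 7.23% and 5.39% of all probes differed. For CALD1 and TPM1 with shERK5-4 the differences were -0.75 (95% interval -1.36 to -0.14, adjusted p = 0.144) and -0.56 (-1.09 to -0.04, adjusted p = 0.217). The lines started apart: mean ACTA2 was 10.2 (SK-N-BE(2)) and 12.1 (CHLA-90) with shNSC, and 8.51 and 8.61 with shERK5-5. Mean ACTG2 was 7.52 and 9.68 with shNSC, and 7.35 and 8.21 with shERK5-5. In CHLA-90, SYNPO2 with shERK5-4 (5.88) and TAGLN with each hairpin (5.58 and 4.99) ended below the array medians. Whether the starting level or a signal floor shaped these differences was not tested.

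Across the arrays the genes fell into sets that varied together. After each line's mean had been subtracted, ACTA2 correlated over the 18 arrays with TAGLN (r = 0.91) and with TPM1 (r = 0.91), and TAGLN with TPM1 (r = 0.85). CALD1 correlated with SYNPO2 (r = 0.95) and SYNPO (r = 0.89), and SYNPO with SYNPO2 (r = 0.91). Between these sets r was low, at 0.04 for ACTA2 with SYNPO2, 0.18 for ACTA2 with CALD1 and 0.39 for ACTA2 with SYNPO. ACTG2 and CNN1 correlated with each other (r = 0.77) and with members of both sets. MYL9 ranged from -0.47 with CNN1, -0.39 with CALD1 and -0.38 with SYNPO2 up to 0.08 with TPM1. The arrays of a group share their hairpin, so these values restate the group differences above and carry no p-value.

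**Figure D4:**
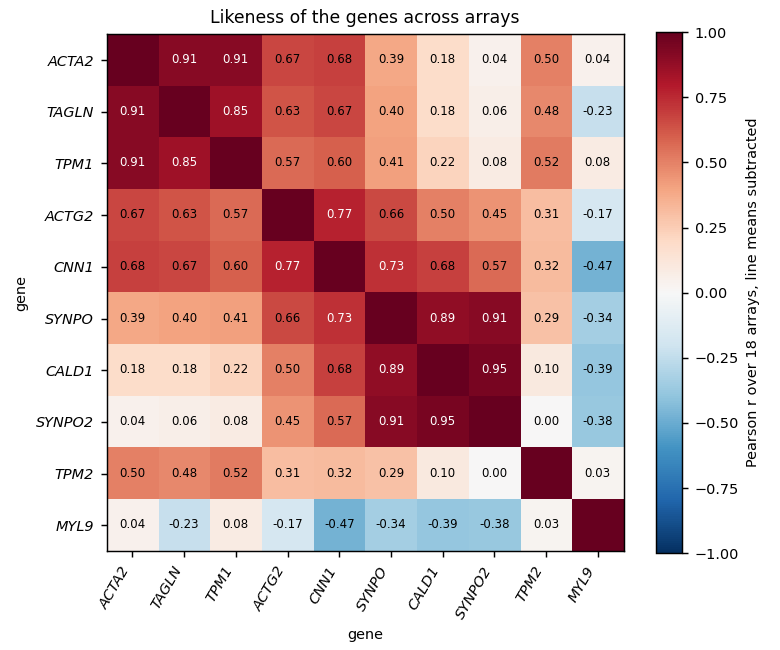
Pearson r between each pair of the 10 genes over 18 arrays after subtraction of each line's mean (colour scale from -1 to 1; both axes list the genes). ACTA2, TAGLN and TPM1 form a block with r of 0.85 to 0.91, and SYNPO, CALD1 and SYNPO2 a block with r of 0.89 to 0.95.

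Among all genes with a symbol, the pattern most like that of ACTA2 on the same measure was that of MAGEA11 (r = 0.936), followed by GXYLT1, a xylosyltransferase (r = 0.933), TADA2B, a subunit of histone acetyltransferase complexes (r = 0.933), and NSF, an ATPase of membrane fusion (r = 0.924). For TAGLN the most alike was ACTA2 (r = 0.91), then the p53-inducible TP53INP1 (r = 0.907), SNAP23 (r = 0.895) and SULT1C4 (r = 0.894). For SYNPO2 they were ISL1, a transcription factor of sympathetic neurons (r = 0.988), the chemokine receptor CXCR4 (r = 0.983), LMO4, a LIM-domain cofactor (r = 0.977), and MOSPD1 (r = 0.976). ISL1 changed by -3.00 ± 0.19 and -3.28 ± 0.19 with shERK5-4 in the 2 lines, and by -0.43 ± 0.19 and 0.17 ± 0.19 with shERK5-5. It was picked for its likeness to SYNPO2 on these arrays, so its changes are a description, without a p-value.

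The adrenergic marker list moved with shERK5-4 beside SYNPO2, SYNPO and CALD1. Of its 10 measured genes, 6 fell and 0 rose with that hairpin in SK-N-BE(2), and 7 fell and 0 rose in CHLA-90. With shERK5-5, 0 fell and 1 rose in the first line, and 2 fell and 1 rose in the second. Its mean signal per array was 10.83 to 11 with shNSC, 9.73 to 10.13 with shERK5-4 and 10.92 to 11.18 with shERK5-5 in SK-N-BE(2). In CHLA-90 it was 13.02 to 13.24, 11 to 11.3 and 12.74 to 13.06. The part of this shift in the contractile gene results was not tested. Of 10 mesenchymal neuroblastoma markers measured, 2 fell and 0 rose in SK-N-BE(2) and 3 fell and 1 rose in CHLA-90 under shERK5-4. Under shERK5-5, 1 fell and 0 rose in each line. Their median log2 change was -0.04 and -0.3 with shERK5-4 and 0.11 and 0.13 with shERK5-5 in the 2 lines. Only the CHLA-90 count with shERK5-4 exceeded the share of all probes given below. SNAI2 fell under shERK5-4 by -2.52 ± 0.30 in each line, and TWIST1 by -1.07 ± 0.27 and -1.72 ± 0.27. In CHLA-90 FN1 also fell with that hairpin (-1.12 ± 0.20) and VIM rose (0.63 ± 0.18). With shERK5-5, FN1 fell in SK-N-BE(2) (-1.03 ± 0.20) and SNAI2 in CHLA-90 (-1.39 ± 0.30). PRRX1, CD44, FOSL1, FOSL2, RUNX1 and RUNX2 passed the threshold in none of the 4 comparisons with shNSC. The mean signal of this list per array was 7.87 to 8.18 with shNSC, 7.46 to 7.79 with shERK5-4 and 7.95 to 7.99 with shERK5-5 in SK-N-BE(2), and 7.69 to 7.76, 7.16 to 7.23 and 7.40 to 8.01 in CHLA-90. Fibroblasts and pericytes are cells that can express ACTA2. Of 9 fibroblast markers, 2 fell and 1 rose in SK-N-BE(2) under shERK5-4, and 0 fell and 4 rose under shERK5-5. In CHLA-90, 2 of them fell and 0 rose under shERK5-4, and 0 fell and 1 rose under shERK5-5. Of 6 pericyte markers, 3 were lower and 1 higher with shERK5-4 and 1 lower and 3 higher with shERK5-5 in SK-N-BE(2), and 2 lower and 0 higher, and 1 lower and 1 higher, in CHLA-90. Over all probes, the share called in either direction was 23.9% (SK-N-BE(2)) and 18.3% (CHLA-90) under shERK5-4, and 12.8% and 12.7% under shERK5-5. The part of these lists in the results was not tested either.

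SRF, the transcription factor that drives many contractile genes, was lower with shERK5-5 in both lines. Its SK-N-BE(2) signals were 6.46, 6.39 and 6.72 with shNSC, 6.41, 6.61 and 7.09 with shERK5-4, and 4.99, 5.01 and 5.13 with shERK5-5. In CHLA-90 they were 7.48, 6.92 and 7.93, then 7.88, 7.92 and 7.84, then 5.80, 6.09 and 5.94. The shERK5-5 arrays lay below every other array of the line. SRF fell by -1.48 ± 0.21 and -1.50 ± 0.21 on the log2 scale with shERK5-5 (limma adjusted p = 2.71e-05 and 3.78e-05). With shERK5-4 it was at 0.18 ± 0.21 and 0.44 ± 0.21 (adjusted p = 0.636 and 0.179), and the hairpins differed by 1.66 ± 0.21 and 1.94 ± 0.21 (adjusted p = 1.96e-06 and 3.43e-07). TEAD1, which binds MCAT motifs, also fell with shERK5-5 (-1.20 ± 0.15 and -0.70 ± 0.15, adjusted p = 6.91e-06 and 0.00372). ELK4, a ternary complex factor that partners SRF, rose with shERK5-5 in CHLA-90 (0.50 ± 0.15, adjusted p = 0.0325). The myocardin-family cofactors MYOCD, MRTFA and MRTFB passed the threshold in none of the 4 comparisons, with MRTFA at 0.58 ± 0.21 and 0.61 ± 0.21 with shERK5-5 (adjusted p = 0.0748 and 0.0578). Of the 8 genes of this list, 0 passed with shERK5-4 in either line, where 23.9% (SK-N-BE(2)) and 18.3% (CHLA-90) of all probes did. With shERK5-5, 2 fell and 0 rose in SK-N-BE(2), and 2 fell and 1 rose in CHLA-90. The shares of all probes called there were 12.8% and 12.7%.

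The counts for other genes of the contractile system stand against the shares of all probes called in either direction, 23.9% (SK-N-BE(2)) and 18.3% (CHLA-90) under shERK5-4 and 12.8% and 12.7% under shERK5-5. Of 22 further smooth muscle contractile genes, 6 fell and 2 rose with shERK5-4 in SK-N-BE(2) and 5 fell and 1 rose in CHLA-90. With shERK5-5, 2 fell and 4 rose in SK-N-BE(2), and 2 fell and 2 rose in CHLA-90. The list's median log2 change under shERK5-4 was -0.09 (SK-N-BE(2)) and -0.16 (CHLA-90), and under shERK5-5 it was 0.09 and -0.08. FHL2, a LIM protein of muscle, fell with shERK5-4 (-1.86 ± 0.23 and -3.38 ± 0.23, limma adjusted p = 1.7e-06 and 4.09e-10) and rose with shERK5-5 in SK-N-BE(2) (0.88 ± 0.23, adjusted p = 0.0114). The integrin subunit ITGA8 fell with shERK5-4 in CHLA-90 (-2.77 ± 0.20, adjusted p = 9.89e-10). CNN3, the widely expressed calponin, fell with shERK5-5 in both lines (-2.11 ± 0.18 and -0.90 ± 0.18, adjusted p = 3.7e-08 and 0.00185) and with shERK5-4 in SK-N-BE(2) (-1.03 ± 0.18, adjusted p = 0.000158). CSRP2, a LIM protein of smooth muscle, rose with shERK5-5 in both lines (1.40 ± 0.16 and 0.99 ± 0.16, adjusted p = 2.04e-06 and 0.000234).

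Of 14 other tropomyosin and non-muscle contractile genes, 3 fell and 2 rose with shERK5-4 and 3 fell and 1 rose with shERK5-5 in SK-N-BE(2). In CHLA-90, 2 fell and 5 rose, and 3 fell and 0 rose. MYH10, a non-muscle myosin heavy chain, fell with shERK5-4 (-1.62 ± 0.17 and -1.01 ± 0.17, adjusted p = 2.06e-07 and 0.000155). MYH9, its close relative, fell with both hairpins in both lines, by -0.87 ± 0.19 and -1.13 ± 0.19 with shERK5-4 and -0.61 ± 0.19 and -0.91 ± 0.19 with shERK5-5 (adjusted p from 0.000143 to 0.037).

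Of 15 actin bundling and adhesion plaque genes, 3 fell and 3 rose with shERK5-4 and 1 fell and 2 rose with shERK5-5 in SK-N-BE(2). In CHLA-90, 0 fell and 4 rose, and 2 fell and 1 rose. LPP, an adhesion protein of smooth muscle, fell with shERK5-5 in SK-N-BE(2) (-1.44 ± 0.17, limma adjusted p = 2.07e-06) and rose with shERK5-4 in CHLA-90 (0.97 ± 0.17, adjusted p = 0.000175). Vinculin (VCL) fell with shERK5-5 in CHLA-90 (-1.44 ± 0.19, adjusted p = 1.5e-05) and rose with shERK5-4 in SK-N-BE(2) (0.66 ± 0.19, adjusted p = 0.011). PALLD and PDLIM5, which attach to alpha-actinin, fell with shERK5-4 in SK-N-BE(2) (-1.24 ± 0.18 and -1.21 ± 0.19, adjusted p = 1.04e-05 and 4.48e-05), and PALLD rose there with shERK5-5 (0.54 ± 0.18, adjusted p = 0.0475). Of 17 further SRF and MRTF target genes, some of which are also in the other lists, 4 fell in each of the 4 comparisons. The number that rose was 1 with each hairpin in SK-N-BE(2), while in CHLA-90 it was 0 (shERK5-4) and 1 (shERK5-5). Shares of all probes called in either direction were 23.9% and 18.3% with shERK5-4, and 12.8% and 12.7% with shERK5-5. Several falls were already counted above: MYH9 in all 4 comparisons, FHL2 with shERK5-4 in both lines, and SRF itself with shERK5-5 in both. The count is thus not separate from those of the other lists. The immediate early gene EGR1 fell with shERK5-4 in SK-N-BE(2) (-3.55 ± 0.20, adjusted p = 1.34e-11) and rose with shERK5-5 in CHLA-90 (1.06 ± 0.20, adjusted p = 0.00104).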

How the data were processed

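The authors deposited a processed log2 signal for every probe on every array. That the base is 2 was read from how far the values spread. The array summarisation, its software and the genome build: not given in the sources used here; detection calls were not used. All 21448 probes were fitted with limma 3.58.1 in R 4.3.3 (lmFit, eBayes), 1 mean per group over 18 arrays in 6 groups, and 12 residual degrees of freedom. Each comparison's p-values had a Benjamini-Hochberg adjustment across every probe, and calls needed 0.05 with no fold limit. Symbols came from the platform annotation, checked by gene number. The members and lists were chosen with earlier results of these data known. Besides the members and MAPK7, the text names up to 4 genes of a pathway list with the smallest p among those past the threshold (2 such genes are not reported here), and the 4 genes most like ACTA2, TAGLN and SYNPO2. Relatives, cofactors and markers named beside them (SYNPO2L, the other actins, MYOCD, MRTFA, MRTFB, the smooth muscle and mesenchymal markers) were chosen after their values were seen. The fit was tested on simulated data. Alternatives were median centring, quantile normalization, leaving out dim probes, a replicate block, fits to the arrays compared, trend and robust estimation, array weights, the mean of a gene's probes, a threshold of 0.01, a minimum fold of 1.5, and leaving out each array.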

Additional observations from a re-analysis of the deposited data

Results flagged for a closer look

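The effect of a hairpin differed between the lines, by the interaction term of the limma model, for 5 genes with shERK5-4 and for 2 of these with shERK5-5. Each value is the CHLA-90 log2 change less the SK-N-BE(2) one. The part of the unlike shNSC levels of the lines in these values was not tested. With shERK5-4 they were -2.28 for ACTA2, -1.10 for SYNPO2, -1.25 for TAGLN (adjusted p = 0.0313), -1.31 for ACTG2 (0.0342) and 0.96 for TPM2 (0.0405). With shERK5-5 they were -1.80 for ACTA2 and -1.29 for ACTG2 (0.0466). ACTA2 and SYNPO2 were chosen for falls that enter these differences, so their values are a description. Over the fits that left out a single array, the ACTA2 values ranged from -2.38 to -2.09 and from -2 to -1.60, and that of SYNPO2 from -1.19 to -0.98. The largest adjusted p in those fits was 0.0893 for TAGLN, 0.111 and 0.136 for ACTG2 and 0.123 for TPM2. Among the arrays compared, the TAGLN call was lost without SK-N-BE(2) shNSC replicate 1 (0.0569) or 2 (0.0893), SK-N-BE(2) shERK5-4 replicate 1 (0.0622) or 3 (0.083), CHLA-90 shNSC replicate 2 (0.0603) or 3 (0.0702), and CHLA-90 shERK5-4 replicate 1 (0.0767) or 2 (0.0778). The ACTG2 call with shERK5-4 was lost without SK-N-BE(2) shNSC replicate 1 (0.0935) or 2 (0.0853), SK-N-BE(2) shERK5-4 replicate 1 (0.058) or 3 (0.0663), CHLA-90 shNSC replicate 1 (0.111) or 3 (0.102), and CHLA-90 shERK5-4 replicate 2 (0.0956) or 3 (0.0574). The groups have 3 arrays each, too few for a test of single outlying arrays.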

How the results depend on the processing

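Of the 9 counts of genes past the threshold, 7 stayed within 1.5 times their value under every alternative run. The exceptions were the differences between the lines. The count for the shERK5-4 effect went from 5 to 3 in a fit to the arrays compared and to 2 at a threshold of 0.01, and from 2 to 6 over single arrays left out. The count for the shERK5-5 effect went from 2 to 1 with quantile normalization, in a fit to the arrays compared and at a threshold of 0.01, and from 1 to 2 over single arrays left out. The cause was not tested. Of 2340 recomputed single gene values, 70 lost and 26 gained a call and 2243 kept theirs. Among those 2243, 32 values without a call before or after turned sign. MYL9 between the lines under shNSC turned and gained a call, at -0.42 with median centring. Some of the 2340 estimates could not move. Each gene had 1 probe, so the mean of its probes was that probe's value. Leaving out an array outside a comparison altered only the spread. Replicate numbers were not taken to pair the arrays: deviations from the group means of same-numbered arrays correlated above 0.1 in 7 of 18 pairs (r from -0.126 to 0.204). All 6 pairs of replicate 3 were among these (0.114 to 0.204), with 1 of 6 for replicate 1 and 0 of 6 for replicate 2. With the replicate number as a block the counts against shNSC were 4, 6, 8 and 8, the same as without it, and the block changed 1 call of a single gene, SYNPO between the lines (adjusted p = 0.0331).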
